A study of Setaria viridis with 32 samples.

Results

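The loci described here gave read counts in seed heads of the *Setaria viridis* ecotype ME034V and almost none in those of ecotype A.10. They were chosen on their levels: the mean in ME034V had to be at least 2 CPM (the count at a locus scaled to the library's total count) at all 4 stages and the mean in A.10 under 0.5 CPM at all 4 stages. Of 38334 annotated loci 75 met both limits, and with the ecotypes exchanged 152 loci did. The ecotype contrast therefore chose the members and is described for them without a test.

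Whole seed heads of ME034V and of A.10 were taken when the head was 50% emerged (50% SH), at anthesis, and at 8 and 16 days after anthesis (DAA). Each of the 8 groups had 4 libraries, each from a pool of 4 plants, and no transgene or treatment is named for any group. ME034V is the ecotype used for transformation, and A.10 is the ecotype whose genome served as the reference for mapping the reads of both. Each value averages every tissue of the head.

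Ecotypes of a species differ in gene content as well as in gene regulation, so that a gene can be lost, broken or silent in one ecotype and intact in another. Reads of both ecotypes were assigned here to the A.10 annotation, and a gene that only ME034V carries has no row in such a table. Every member is thus a locus that the A.10 annotation holds. A count at a locus also depends on how well a read of either ecotype maps there. The files pair the identifiers with no gene name, so no role is given for any member.

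Total counts ran from 4557079 to 21175874 per library, with a median of 8178992. Of the ME034V libraries 2 stood apart from the other 3 of their group at more loci than the rest did. These were replicate 3 at 16 DAA, which lay apart at 6.08% of loci, and replicate 1 at 50% SH, at 5.54%, against 0.768% to 3.02% in the other ME034V libraries (Dixon's 95% criterion on log2 CPM). Counts of changed loci are therefore also given without both. As a check of the stages, the levels of 3 loci were summed. These were a starch synthase (Sevir.4G021900) and the putative tonoplast aquaporins SvTIP3;1 (Sevir.9G207100) and SvTIP3;3 (Sevir.9G574900). The paper reports starch synthase genes and both aquaporins in the later stages. The sum was between 2161 and 3236 CPM in the 8 late ME034V libraries and between 2.15 and 39.2 CPM in the 8 early ones. Most of it was starch synthase. The single loci were less even at 16 DAA in ME034V, with 1265 to 2845 CPM for the starch synthase, 258 to 963 for SvTIP3;1 and 41.7 to 146 for SvTIP3;3.

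The members together made up a small and steady share of the ME034V libraries. Their summed level was 758 to 1013 CPM in the 16 ME034V libraries (median 898) and 4.71 to 8.60 CPM in the 16 A.10 libraries (median 6.49). All 75 members had counts in every ME034V library, against 20 to 34 of them in an A.10 library. Every ME034V library lay above every A.10 library for 74 members, a pattern that 1.38% of all 25264 tested loci showed and that the limits largely fix. The exception was Sevir.2G120300, with a mean of 2.62 CPM over the ME034V libraries and 0.287 CPM over the A.10 libraries.

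**Figure D1:**
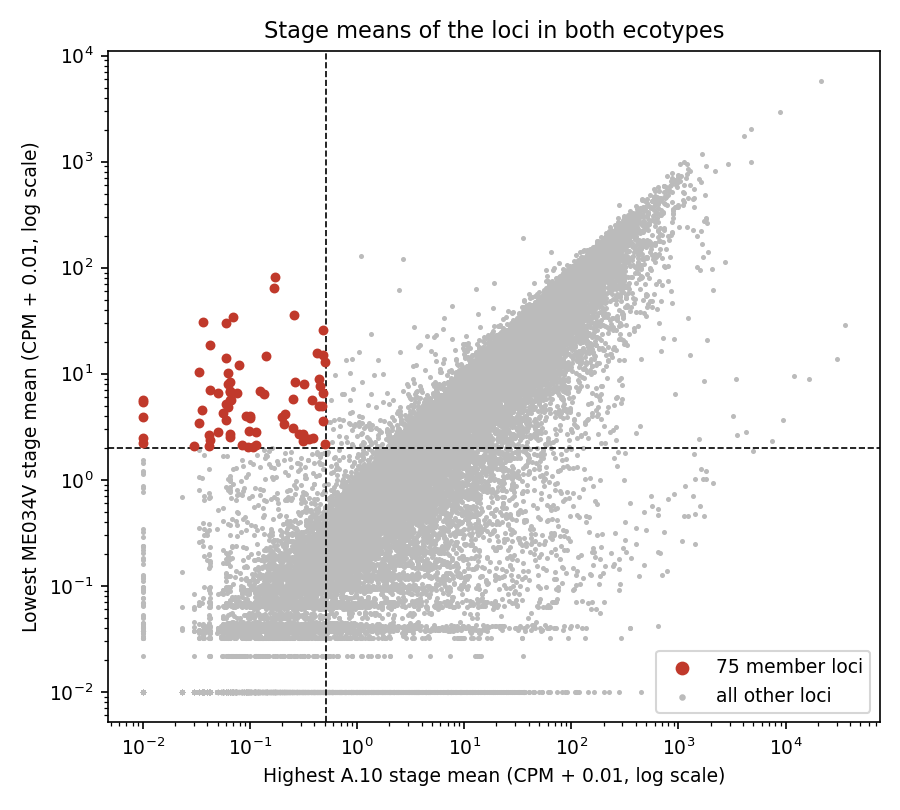
Lowest ME034V stage mean (vertical axis) against highest A.10 stage mean (horizontal axis), in CPM plus 0.01 on log scales, 1 point per locus; dashed lines mark the limits of 2 and 0.5 CPM. The 75 members fill the upper left corner, with ME034V minima between 2.02 and 82.0 CPM.

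Levels within ME034V were unequal. By their lowest stage mean 16 members had at least 10 CPM, 21 had 5 to 10 CPM and 38 had 2 to 5 CPM. The 10 highest held 53.0% of all counts at the members, and the highest alone held 10.9%. In the deposited log2 FPKM table of ME034V the members ranked from the 6.28th to the 96.0th percentile of 23713 loci, with a median at the 40.0th.

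Ranked by lowest stage mean, the highest member was Sevir.8G138300, on chromosome 8 from 24757281 to 24770205 (v2.1 annotation, plus strand). In ME034V it had 110.0, 71.7, 67.0 and 79.2 CPM at 50% SH, 83.5, 82.5, 83.3 and 95.9 at anthesis, 123, 106, 141 and 110.0 at 8 DAA, and 119.8, 116, 88.3 and 98.9 at 16 DAA. The 16 A.10 libraries held 11 counts of it in all, with 9 libraries at 0, against 14266 counts in ME034V. The ratio of the mean CPM values, 98.5 in ME034V over 0.0858 in A.10, was 1148.

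Sevir.5G006650, on chromosome 5 from 513883 to 515838 (minus strand), followed. Its ME034V libraries had 97.9, 71.6, 72.9 and 74.7 CPM at 50% SH, 73.7, 71.9, 71.1 and 72.7 at anthesis, 72.4, 74.3, 79.8 and 66.3 at 8 DAA, and 60.9, 67.9, 55.5 and 71.0 at 16 DAA. A.10 gave 10 counts over 16 libraries, against 10550 in ME034V. Apart from replicate 1 at 50% SH, its libraries lay within a narrow band at every stage.

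The next members in this ranking were Sevir.5G347450, Sevir.4G171001, Sevir.1G367600, Sevir.9G010600, Sevir.3G424400, Sevir.3G308300, Sevir.4G210200 and Sevir.3G416300. Over the 16 libraries Sevir.5G347450 averaged 39.1 CPM in ME034V and 0.131 CPM in A.10. Sevir.4G171001 averaged 39.6 CPM in ME034V and 0.0417 CPM in A.10. Sevir.1G367600 averaged 42.8 CPM in ME034V, and A.10 held 3 counts of it in all. Sevir.3G308300 stood out for its near absence from A.10, with 1 count in 16 libraries beside a mean of 23.3 CPM in ME034V. Sevir.4G210200 averaged 17.9 CPM in ME034V and 0.269 CPM in A.10, and Sevir.3G416300 averaged 18.2 CPM in ME034V and 0.390 CPM in A.10. Sevir.3G416300 was the member with the most A.10 counts, 60, spread over 15 of the 16 libraries.

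Per kilobase of locus, introns included, the order changed. Sevir.9G582000, a locus of only 369 bp, had 41.4 CPM per kb in ME034V, Sevir.5G006650 had 36.9 and Sevir.9G010600 had 34.6, while Sevir.8G138300, with 12925 bp, had 7.62. The lowest was Sevir.9G186901 with 0.495 CPM per kb over 6729 bp.

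**Figure D2:**
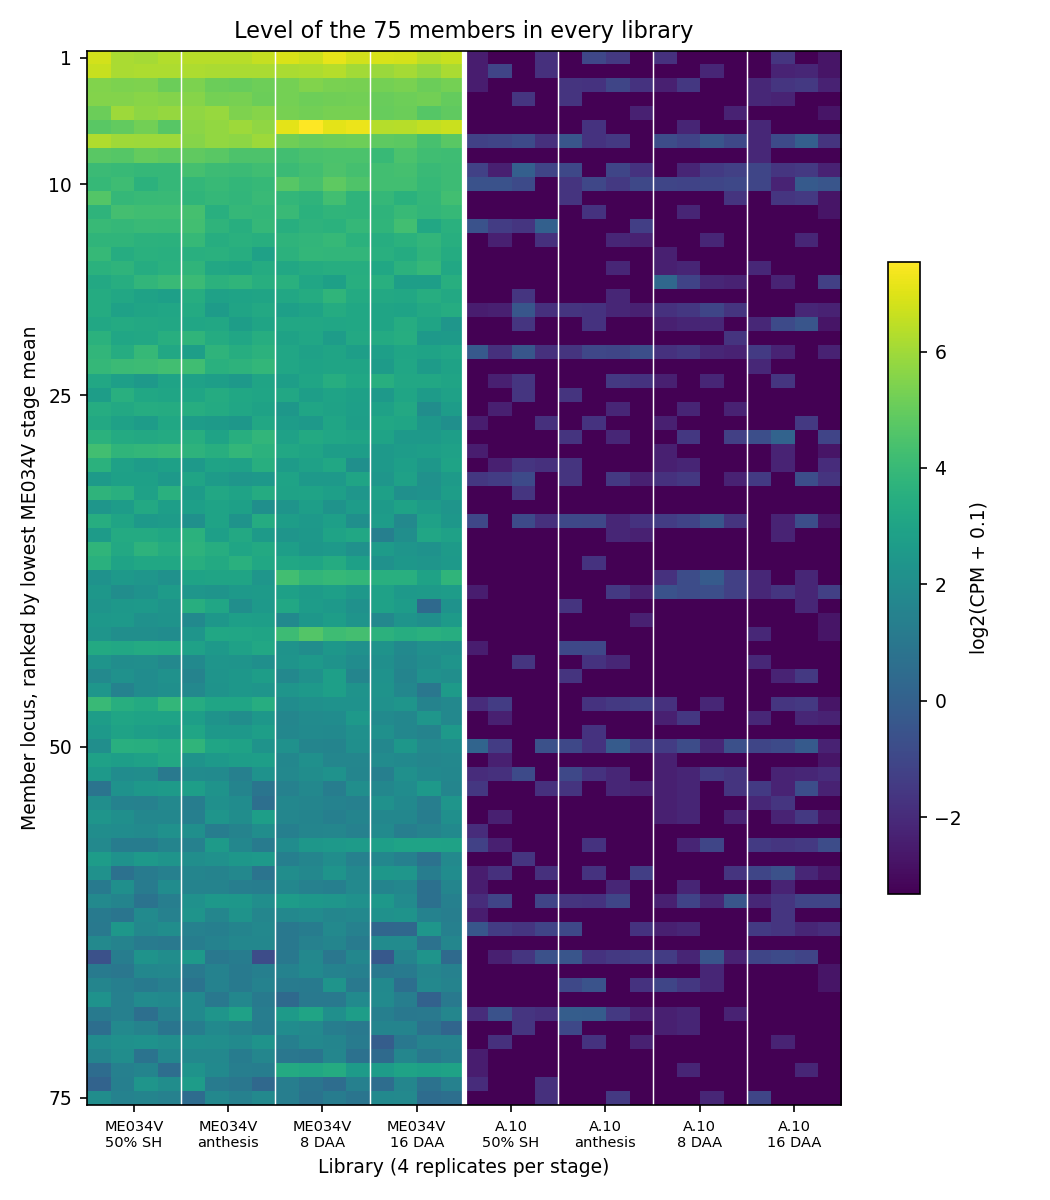
Level of each of the 75 members (rows, ranked by lowest ME034V stage mean) in each of the 32 libraries (columns), as log2(CPM + 0.1). The ME034V columns are filled in every row, and 64.2% of the cells in the A.10 columns are at a count of 0.

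Reads of A.10 at the members were few but not absent. Of the 1200 pairs of a member and an A.10 library, 771 (64.2%) held no count, 219 held 1 count and 22 held more than 5. Over all 16 A.10 libraries, 5 members had no count, 24 had 1 to 3 and 46 had more.

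The members with no count in A.10 were Sevir.5G414700, Sevir.8G163650, Sevir.8G140200, Sevir.5G224200 and Sevir.2G060000. A count of 0 over these libraries allows up to 0.0213 CPM (3 counts over the whole group), and counting intervals and floors cover counting error only. Against that floor Sevir.5G414700, with a mean of 8.26 CPM, was at least 389-fold higher in ME034V, and Sevir.2G060000, with 2.67 CPM, at least 125-fold higher.

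At the other end, Sevir.8G037600, Sevir.5G033700 and Sevir.3G414000 reached the highest A.10 levels in a single library, 1.13, 1.05 and 0.992 CPM. For Sevir.8G037600 the A.10 counts were 12, 3, 1 and 1 in the 4 libraries at 8 DAA, 0, 1, 0 and 6 at 16 DAA and 0 in the 8 earlier libraries, while its ME034V means were 12.7, 13.5, 9.67 and 8.96 CPM from 50% SH to 16 DAA. For Sevir.5G033700 all but 1 A.10 library had counts, 59 in all, and 13 of them lay in replicate 1 at 50% SH. Sevir.3G414000 had 20 of its 27 A.10 counts at 16 DAA.

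Of the 29 members with 10 or more A.10 counts, 8 had over 50% of them in 1 stage, and the share of the top stage ran from 28.6% to 88.2% (median 40.5%). Sevir.8G163700 had A.10 counts of 7, 3, 1 and 5 at 50% SH, 3 in all at anthesis and 0 at both later stages. Its ME034V means were 15.8, 14.7, 12.8 and 13.3 CPM over the same stages, with no such drop. Sevir.3G421500 had 15 of its 17 A.10 counts at 8 DAA, which was also its highest stage in ME034V. With so few counts these are descriptions of single loci, and no stage test was made in A.10.

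The limits cut through a continuum. Just inside the ME034V limit lay Sevir.1G269950, Sevir.2G395950 and Sevir.8G171000, with lowest stage means of 2.02, 2.02 and 2.05 CPM. Just outside lay Sevir.8G245100, Sevir.9G233600 and Sevir.9G150200, with 1.96, 1.92 and 1.90 CPM. At the A.10 limit Sevir.6G107401, Sevir.8G163700 and Sevir.3G424400 were inside with highest stage means of 0.494, 0.494 and 0.470 CPM, and Sevir.5G112650, Sevir.4G105800 and Sevir.4G242900 were outside with 0.512, 0.554 and 0.563 CPM. Sevir.8G245100 had 6.55, 8.78, 5.35 and 1.96 CPM in ME034V from 50% SH to 16 DAA, and 1 low stage kept it out.

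The next question was whether the members' transcripts changed while the ME034V head developed. The late stages (mean of 8 and 16 DAA) were compared with the early ones (mean of 50% SH and anthesis) in the 16 ME034V libraries by edgeR's quasi-likelihood test, and a locus was called at a Benjamini-Hochberg p under 0.05, adjusted across the 24144 loci that were fitted. Of the 75 members 15 rose and 18 fell, 44.0% together, while 34.2% of all tested loci rose and 32.4% fell, 66.6% together. The rule's floor keeps out loci that fall below 2 CPM at any stage, so the closer background is the 17565 loci with ME034V means of at least 2 CPM throughout, of which 31.1% rose and 33.2% fell, 64.3% together. The members had a median level of 6.47 CPM in ME034V and these loci 25.1 CPM, and the part of level in the lower share of calls was not tested. Without both libraries that stood apart 18 members rose and 16 fell.

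The changes of the members were mostly modest. The median log2 fold change of the members was 0.04, that of all tested loci 0.03, and the median size was 0.28 for members, 0.39 for loci with at least 2 CPM throughout and 0.51 for all loci. By more than 1 log2 unit 7 members moved, 5 that rose and 2 that fell, and this count was not made for other loci. All late libraries lay above all early ones in CPM for 3 members (9.56% of all tested loci) and below them for 10 (22.4% of all tested loci). With libraries scaled by their totals alone, which moves the median of all loci by -0.21, 10 members rose and 23 fell. In samples of whole heads, a change in the number of cells of a type and a change in RNA per cell cannot be told apart.

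**Figure D3:**
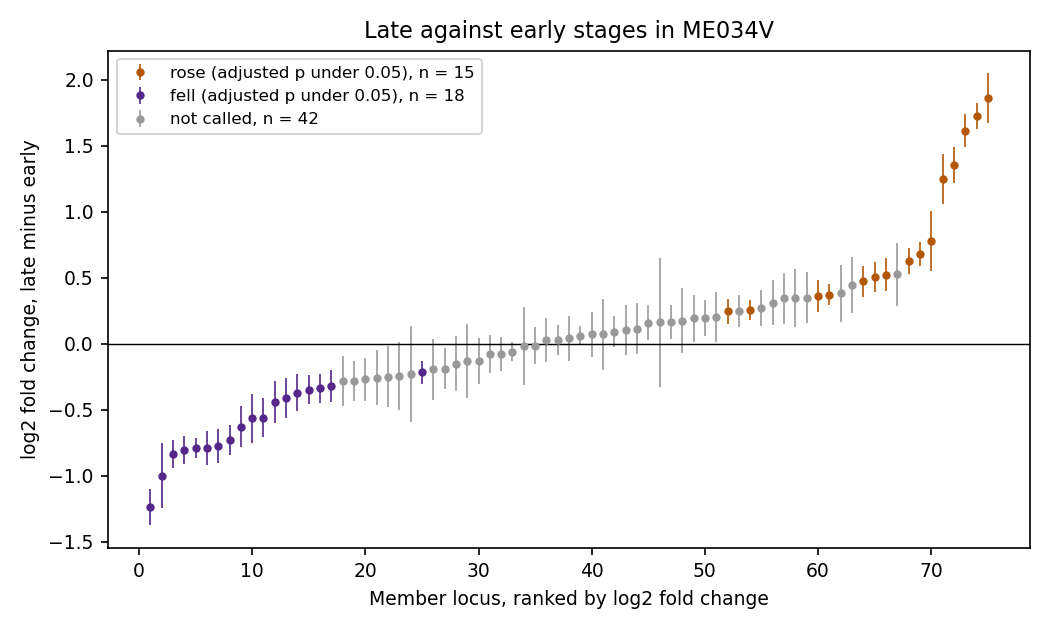
Log2 fold change of the late over the early stages in ME034V for the 75 members, ranked, with the approximate standard error as bars; colours mark members that rose (15), fell (18) or were not called (42) by edgeR. Values run from -1.24 to 1.86 and cross 0 near the middle of the ranking.

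Sevir.8G171000 and Sevir.9G010600 showed the largest rises. Sevir.8G171000, on chromosome 8 from 30350189 to 30353656, had 1.35, 2.58, 2.89 and 1.39 CPM at 50% SH, 4.64, 3.49, 2.42 and 2.36 at anthesis, 9.81, 9.04, 10.1 and 6.16 at 8 DAA, and 6.34, 7.85, 7.04 and 7.68 at 16 DAA in ME034V. All 8 late libraries lay above all 8 early ones. The locus rose by 1.86 log2 units (SE 0.19, edgeR adjusted p = 1.4e-07). A.10 held 3 counts of it in all.

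Sevir.9G010600, on chromosome 9 from 548069 to 550433, was low at 50% SH and peaked at 8 DAA. Its ME034V libraries had 26.9, 30.3, 37.6 and 26.5 CPM at 50% SH, 49.9, 54.6, 62.5 and 53.7 at anthesis, 136, 187, 135 and 148 at 8 DAA, and 79.9, 84.1, 93.9 and 102 at 16 DAA. No library overlapped between these 4 stages. The late against early log2 fold change was 1.73 (SE 0.10, edgeR adjusted p = 1.1e-10). With 151 ± 24.3 CPM (SD, n = 4) at 8 DAA this locus had the highest stage mean of any member, and A.10 held 3 counts of it in 16 libraries, of which 1 fell at 8 DAA.

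Among the falls Sevir.8G096200 was the largest. In ME034V this locus, on chromosome 8 from 11667893 to 11672078, had 16.2, 11.2, 10.0 and 14.4 CPM at 50% SH, 10.4, 8.40, 8.26 and 10.7 at anthesis, 3.82, 4.24, 4.59 and 4.51 at 8 DAA, and 4.41, 4.96, 2.84 and 3.26 at 16 DAA. The early libraries all lay above the late ones, and the log2 fold change was -1.24 (SE 0.14, edgeR adjusted p = 5.3e-07). It overlaps Sevir.8G096100 on the same strand over 1230 bp, so reads there cannot be told apart by strand or place. The log2 fold change of Sevir.5G033700 was -1.0006 (SE 0.24, edgeR adjusted p = 0.0017), but its libraries were less even, with 4.04, 11.3, 11.1 and 9.88 CPM at 50% SH, 13.8, 8.27, 7.63 and 4.72 at anthesis, 4.36, 3.01, 2.85 and 4.18 at 8 DAA, and 3.17, 5.28, 3.39 and 3.79 at 16 DAA, and the early and late libraries overlapped.

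**Figure D4:**
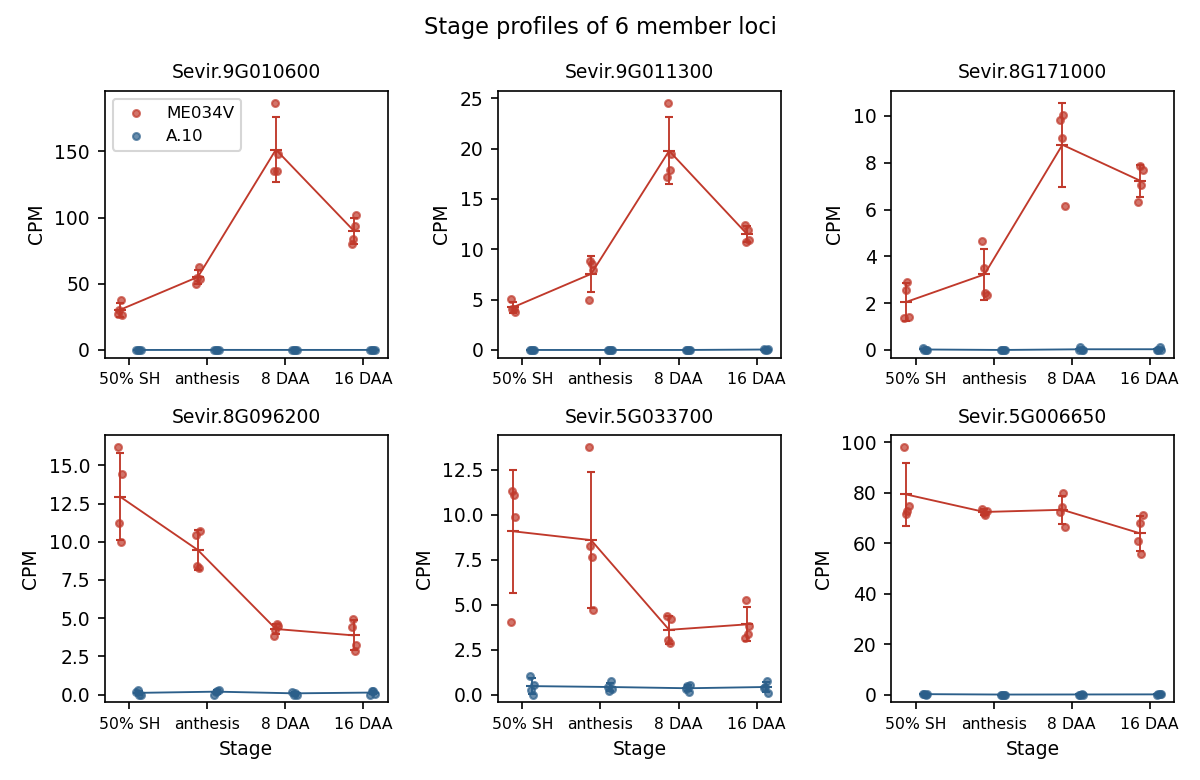
CPM of 6 members at the 4 stages in ME034V (red) and A.10 (blue); points are libraries, dashes are means and bars are SD (n = 4). Sevir.9G010600, Sevir.9G011300 and Sevir.8G171000 have their highest means at 8 DAA in ME034V, with 151, 19.8 and 8.77 CPM. Of these, Sevir.8G171000 was not called from 8 to 16 DAA, and its libraries at these stages overlap. Sevir.8G096200 and Sevir.5G033700 are lower after anthesis, and A.10 stays near 0 in all 6 panels.

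The calls fell mainly between anthesis and 8 DAA, among the members as among all tested loci. At that step 14 members rose and 9 fell, 30.7% together. Of all loci tested by edgeR 22.2% rose and 24.4% fell (46.6% together), and of those with at least 2 CPM throughout 20.3% and 23.6% (43.9% together). The largest rises and falls were again those of Sevir.8G171000 (log2 fold change 1.67, SE 0.26, edgeR adjusted p = 5.0e-05), Sevir.9G010600 (1.64, SE 0.14, edgeR adjusted p = 5.0e-08), Sevir.5G033700 (-1.02, SE 0.35, edgeR adjusted p = 0.022) and Sevir.8G096200 (-0.96, SE 0.19, edgeR adjusted p = 0.00066). The call of Sevir.5G033700 was lost without replicate 1 at anthesis, or without replicate 2 or 3 at 8 DAA (highest edgeR adjusted p = 0.094). With library totals as the scale, which moves the median of all loci by -0.19 at this step, 7 members rose and 12 fell. Without replicate 2 at anthesis 9 rose.

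Before and after this step fewer loci were called, among the members as among all tested loci. From 50% SH to anthesis 3 members rose and 1 fell, 5.33% together. Of all tested loci 10.4% rose and 8.14% fell (18.5% together), and of those with at least 2 CPM throughout 7.23% and 8.84% (16.1% together). Sevir.9G010600 rose by 0.85 (SE 0.14, edgeR adjusted p = 0.00031), and Sevir.6G107401 by 1.00 (SE 0.34, edgeR adjusted p = 0.047). The fall was that of Sevir.3G424400, -0.32 (SE 0.11, edgeR adjusted p = 0.048), and both this call and that of Sevir.6G107401 were lost under most alternatives, with adjusted p up to 0.13 and 0.20. At the unadjusted level 14 of the 75 had an edgeR p under 0.05. So did 7416 of all 24144 tested loci and 5023 of the 17565 with at least 2 CPM throughout.

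From 8 to 16 DAA 4 members fell and 0 rose by edgeR, 5.33% together. Of all tested loci 2.61% fell and 4.1% rose (6.71% together), and of those with at least 2 CPM throughout 2.37% and 2.98% (5.35% together). The share of members called was thus near that of other loci. Here 8 members had an unadjusted edgeR p under 0.05, as did 4992 of all 24144 tested loci and 3344 of the 17565 with at least 2 CPM throughout. DESeq2 called 5 falls and 0 rises among the members. Sevir.6G107401 had 2.48, 1.92, 2.03 and 3.05 CPM at 16 DAA, below all 4 libraries at 8 DAA, which had 5.996, 8.03, 4.22 and 6.60 CPM, and its log2 fold change was -1.31 (SE 0.33, edgeR adjusted p = 0.024). The call of Sevir.6G107401 was lost in 4 alternatives, without replicate 1, 2 or 4 at 8 DAA or replicate 2 at 16 DAA (edgeR adjusted p of 0.055 to 0.076). Sevir.9G011300 had a log2 change of -0.71 (SE 0.17, edgeR adjusted p = 0.018), and its call was lost without replicate 2 at 8 DAA (edgeR adjusted p = 0.068). Without replicate 1 at 8 DAA 2 members fell.

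Over all comparisons 41 members were called nowhere. This count was not made for other loci, for which the shares called are given above for each comparison. The smallest late against early changes were those of Sevir.8G163700 (log2 fold change -0.01, SE 0.14), Sevir.2G078440 (-0.02, SE 0.30) and Sevir.4G266300 (0.03, SE 0.17). The SE of Sevir.2G078440 is wide, and its libraries ran from 1.71 to 6.79 CPM in the early stages. Replicates within a stage differed by a coefficient of variation of 7.34% to 64.2% over the members (median 19.3%), and loci with at least 2 CPM at every stage had a median of 14.04%.

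By CPM 39 members were highest at 50% SH, 11 at anthesis, 19 at 8 DAA and 6 at 16 DAA. The split depends on the scale, and after TMM scaling of the libraries the counts were 30, 8, 25 and 12 in the same order of stages. On the TMM scale that is 40.0%, 10.7%, 33.3% and 16.0% of the members, against 36.6%, 14.1%, 18.5% and 30.8% of the loci with at least 2 CPM throughout, a description with no test. The ratio of the highest to the lowest stage mean in CPM had a median of 1.46. It was over 2 in 16 members and largest in Sevir.9G010600, at 4.996, and was not computed for other loci. CPM of a whole library also move with the share taken by other genes. The 3 loci summed as a check of the stages rose late against early, with log2 fold changes of 8.60 to 10.43 (edgeR adjusted p at most 1.7e-11). Their part in the members' changes was not tested.

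The members lay on all 9 chromosomes. Chromosome 8 held 14 of them, 9.04 per 1000 loci tested there, against 1.56 to 3.78 per 1000 on the other chromosomes. The 150 highest of the loci found in A.10 and not in ME034V were also densest on chromosome 8, with 12.3 per 1000, against 3.42 to 8.97 elsewhere. Chromosome 9 had the fewest members for its size, 7, or 1.56 per 1000. Most members stood alone, with a median distance of 951081 bp to the next. Another member lay within 100000 bp of 11 members, and the share of all loci with a member so near was not counted.

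The median length of the members from start to end was 2219 bp (316 to 12925 bp), against 3332 bp over all tested loci and 3961 bp over loci with at least 2 CPM throughout ME034V. It was close to the 2384 bp over all annotated loci and the 2481 bp over the 150 highest loci found in A.10 and not in ME034V. Of the members 13 (17.3%) were under 1 kb, as were 7.94% of all tested loci, 20.7% of all annotated loci and 17.3% of those 150. The shortest was Sevir.5G165300, with 316 bp and 3.61 CPM in ME034V against 0.0514 CPM in A.10. The files give 1 interval per locus and no exons, so transcript lengths are not analysed here.

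With no tested locus of another kind between them, members formed 3 runs with 7 members in all. The longest held 3 loci on chromosome 8, Sevir.8G163650 (29333204 to 29334173, minus strand), Sevir.8G163700 (29334871 to 29338342, minus strand) and Sevir.8G163800 (29340527 to 29344480, plus strand). Their ME034V means over all libraries were 6.30, 14.2 and 3.33 CPM, and their A.10 libraries held 0, 19 and 3 counts in all. None of the 3 was called late against early (log2 fold changes 0.04, -0.01 and 0.35, SE 0.17, 0.14 and 0.19). Of the members 9.33% were in runs, against 31.3% of the 150 highest loci found in A.10 and not in ME034V, whose longest run had 4 loci. That list is longer than the 75 members, and a longer list forms runs more readily, so the shares are not a like comparison.

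The locus on the other side of this run went the opposite way. Sevir.8G163600 (29323910 to 29330436), 2768 bp from the nearest member, averaged 1.87 ± 0.673 CPM in ME034V and 37.4 ± 11.6 CPM in A.10 (SD, n = 16 each), a log2 difference of -4.32 (SE 0.10, edgeR adjusted p = 1.6e-25). It was picked out after its values were seen. A locus far lower in ME034V thus stood directly beside 3 loci with few counts in A.10.

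The other runs were pairs. Sevir.8G138200, 8054 bp on the minus strand, lay beside the highest member, Sevir.8G138300, with 4.01 CPM in ME034V and 0.249 CPM in A.10, a far lower level than its neighbour's. On chromosome 5 Sevir.5G006600 (511504 to 512059, plus strand) preceded Sevir.5G006650 (513883 to 515838, minus strand), with 7.31 CPM in ME034V and 0.0739 CPM in A.10.

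Differences between the ecotypes reached past the members into the loci beside them. For each member the nearest locus on either side that was not itself a member was taken, 142 loci, of which 79 had enough counts to be tested (over 1 CPM in 3 libraries or more). The mean of the 4 stages was compared between ME034V and A.10 in 1 edgeR fit over all 32 libraries. Of the 79, 34 (43.0%) were higher in ME034V and 10 (12.7%) lower, while 20.5% of all 25189 other loci tested were higher and 16.6% lower. By more than 2 log2 units 18 were higher in ME034V (22.8%, against 2.53% of the others) and 4 lower.

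The excess was largest for the first locus. At the second to the fifth locus from a member 26.8%, 32.1%, 23.7% and 22.2% were higher in ME034V and 19.5%, 27.4%, 22.6% and 21.1% lower, by the same test. The median size of the ecotype difference was 0.51 log2 units at the first locus, 0.28 at the second, 0.38 at the third, 0.24 at the fourth and 0.22 at the fifth, and 0.17 over all other loci. When a locus had to exceed 5 CPM in 4 libraries or more, 51 first neighbours were tested, of which 18 were higher and 9 lower. Shares of all loci are not given under this filter. With the main filter but without both libraries that stood apart 34 first neighbours were higher and 11 lower.

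**Figure D5:**
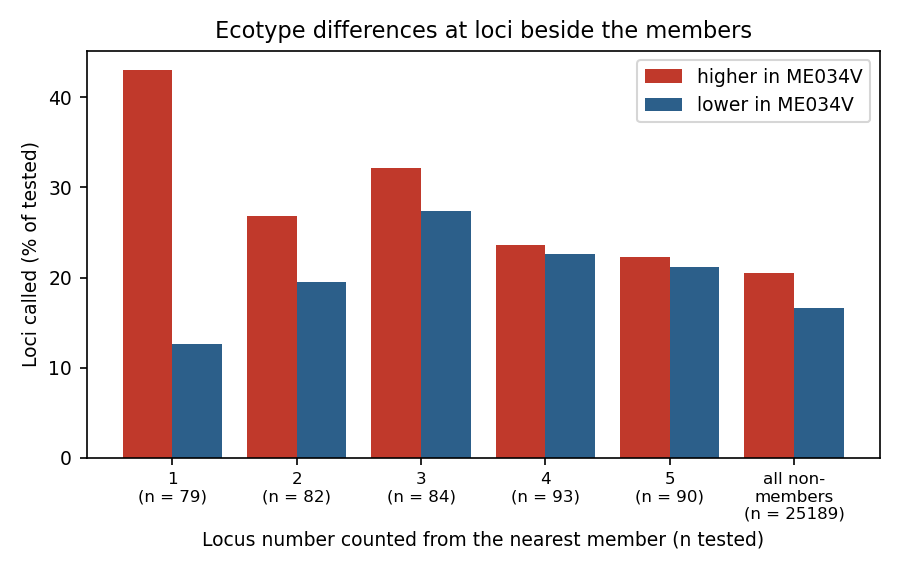
Share of tested loci called higher (red) or lower (blue) in ME034V than in A.10 by edgeR, for the first to the fifth non-member locus from a member and for all non-member loci; n is the number tested. The first locus has 43.0% higher and 12.7% lower, against 20.5% and 16.6% over all non-members.

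Counting ignored strand and used the whole interval of each locus, so reads that run past the end of a member could be counted in the next locus. Of the 34 higher neighbours 12 lay within 1000 bp of a member, including 2 that overlapped one. The distance of the 34 had a median of 2556.5 bp and ran up to 24634 bp. Neighbours after the 3′ end of the nearest member were higher in 18 of 42 cases (42.9%) and those before the 5′ end in 16 of 37 (43.2%). What such reads add was not tested. Of the 34, 11 also kept the A.10 limit of the members and fell short only of the level in ME034V.

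The neighbour with the largest ecotype difference was Sevir.5G006500 (chromosome 5, 506549 to 510736), 768 bp before the pair on chromosome 5. In ME034V it had 143, 140.1, 148 and 134 CPM at 50% SH, 139, 147, 142 and 145 at anthesis, 131, 123, 128 and 142 at 8 DAA, and 116, 121, 135 and 140.0 at 16 DAA. In A.10 it had 0.161, 0.0934, 0.219 and 0.182 CPM at 50% SH, 0.832, 0.593, 0.631 and 0.614 at anthesis, 0.660, 0.822, 0.639 and 0.941 at 8 DAA, and 0.907, 1.10, 1.496 and 0.839 at 16 DAA. Its mean over the ME034V libraries, 136 ± 9.64 CPM, was higher than that of any member, though at 8 DAA alone the member Sevir.9G010600 had the higher mean. Sevir.5G006500 missed the rule only because A.10 reached 0.671 ± 0.376 CPM (SD, n = 16 each), with stage means of 0.164, 0.668, 0.766 and 1.09 CPM from 50% SH to 16 DAA. The log2 difference was 7.90 (SE 0.07, edgeR adjusted p = 3.0e-36). Together with Sevir.5G006600 and Sevir.5G006650 it makes 3 neighbouring loci with many counts in ME034V heads and few in A.10 heads.

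On chromosome 9 loci that differed in both directions lay between 530263 and 609094. Sevir.9G010600 and Sevir.9G011300 (599761 to 601609) are members, and both were highest at 8 DAA. Sevir.9G011300 had 5.03, 4.04, 4.10 and 3.8001 CPM at 50% SH, 4.97, 8.79, 8.52 and 7.93 at anthesis, 17.2, 24.5, 17.9 and 19.5 at 8 DAA, and 12.4, 10.7, 11.9 and 10.9 at 16 DAA in ME034V, so that its lowest library at 8 DAA lay above every library of the other stages. A.10 had 2 counts of Sevir.9G011300 in 16 libraries.

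Sevir.9G010500 (530263 to 531933), the neighbour of Sevir.9G010600, was also higher late than early, by 1.86 log2 units (SE 0.20, edgeR adjusted p = 3.5e-07). It had 2.07, 1.12, 1.33 and 1.65 CPM at 50% SH, 0.994, 3.36, 4.195 and 3.12 at anthesis, 7.30, 9.04, 6.70 and 7.70 at 8 DAA, and 5.51, 5.44, 6.23 and 6.63 at 16 DAA in ME034V, and A.10 held 5 counts of it in all. The ecotype difference was 6.47 log2 units (SE 0.32, edgeR adjusted p = 1.0e-15), and its low mean at 50% SH, 1.54 CPM, kept it out of the members. Over the mean of the 4 stages Sevir.9G010700, Sevir.9G011200 and Sevir.9G011400, also neighbours, were higher in ME034V, by 3.43, 1.06 and 2.27 log2 units (SE 0.23, 0.22 and 0.24, edgeR adjusted p at most 0.00035). Their ME034V means were 3.54, 2.80 and 2.1002 CPM and their A.10 means 0.295, 1.38 and 0.441 CPM, so that A.10 was not silent at all of them. For Sevir.9G011200 the difference lay mainly at 50% SH and anthesis, with 3.31 and 2.83 CPM in ME034V and 0.783 and 0.886 CPM in A.10. At 8 DAA its means were 1.83 CPM in ME034V and 1.76 CPM in A.10. At 16 DAA they were 3.24 and 2.08 CPM, but replicate 3 of ME034V, a library that stood apart, had 7.45 CPM. The other ME034V libraries at 16 DAA had 1.65 to 2.105 CPM. All 3 of these neighbours were picked out after their values were seen.

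Other loci between the members of this stretch went the other way. Sevir.9G010750 averaged 0.0334 CPM in ME034V and 27.1 CPM in A.10, a log2 difference of -9.70 (SE 0.25, edgeR adjusted p = 2.8e-20). Sevir.9G010800, Sevir.9G010866 and Sevir.9G011000 averaged 4.15, 10.2 and 37.5 CPM in ME034V and 88.4, 197 and 223 CPM in A.10, and Sevir.9G010932 and Sevir.9G011150 averaged 0.183 and 0.126 CPM in ME034V and 8.11 and 10.6 CPM in A.10. All were lower in ME034V by edgeR (adjusted p at most 1.3e-15). Past either end, Sevir.9G010400 (log2 difference -0.03, SE 0.10) and Sevir.9G011600 (0.08, SE 0.08) were not called. These loci too were picked out after their values were seen.

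Beside a member on chromosome 2 the difference had the opposite sign. Sevir.2G157800 (chromosome 2, 20409284 to 20412512), 525 bp from the member Sevir.2G157700 (20408001 to 20408759), had 11 counts in all in the 16 ME034V libraries and 1180 in the 16 A.10 libraries. Its mean was 0.0959 ± 0.175 CPM in ME034V and 8.39 ± 1.35 CPM in A.10 (SD, n = 16 each), a log2 difference of -6.95 (SE 0.29, edgeR adjusted p = 2.7e-17). Sevir.2G157700 itself averaged 8.51 CPM in ME034V and 0.181 CPM in A.10. Here too a locus of each ecotype lay next to one of the other, with similar levels. Within 100000 bp 8 members had a locus of the opposite kind. The share of all loci with one so near was not counted, so this number is a description only.

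Of the 75 members 4 overlapped another annotated locus. Sevir.8G096100, which shares 1230 bp with Sevir.8G096200, averaged 3.69 CPM in ME034V and 1.66 CPM in A.10. The other members with an overlap were Sevir.6G030400 over 2477 bp, Sevir.4G184800 over 236 bp and, with a locus on the opposite strand, Sevir.8G196432 over 117 bp. The loci they overlap had means of 0.0752, 1.01 and 1.23 CPM in ME034V and 0.230, 0.0137 and 0.0317 CPM in A.10, against 8.05, 2.54 and 5.76 CPM in ME034V for the members themselves.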

How the data were processed

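The authors extracted RNA from frozen whole heads, made poly(A) libraries, used Trim Galore on the reads, placed them uniquely with Subjunc of Subread 1.6.2, and counted fragments without strand over 1 interval per locus with featureCounts 1.5.0-p1. The deposited count files hold raw counts for 38334 loci of the v2.1 annotation. The deposited log2 FPKM tables, made by the authors per ecotype with edgeR, gave percentiles only, with the deposited locus length. Counts were tested with edgeR 4.0.16 (TMM, quasi-likelihood) in R 4.3.3, on loci that exceeded 1 CPM in 3 libraries or more. The SE was taken as the absolute log2 change over the square root of F. Alternatives were DESeq2 1.42.0, its size factors, library totals, other filters, a replicate block, 8 libraries of a step, a joint fit, other limits and leaving out single libraries.

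With counts simulated for the late against early comparison (23575 loci) edgeR recovered 86.0% of changes of 1 and 99.0% of changes of 2 log2 units, with 10 false calls. The 177 loci collated by the study for seed filling were set aside, of which 0 met the limits. Members and lists were chosen with earlier results of these data known. Named loci are the highest by level, the largest and smallest changes (at most 2 each way per comparison), members of the longest run, loci at the limits, those highest in A.10 and the neighbours with the largest difference. Lists by gene description were not used, since no identifier carries one.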

Additional observations from a re-analysis of the deposited data

Results flagged for a closer look

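Groups of 4 libraries were searched for a library far from the other 3 (Dixon's 95% criterion), and 4 of 112 groups held one, where chance alone gives about 1 in 20. The summed level of the members at 50% SH in ME034V was 979 CPM in replicate 1, against 896.6 to 899 CPM in the other 3 libraries. Sevir.5G006650 had 97.9 CPM in the same library, against 71.6 to 74.7 CPM in the others. At anthesis in ME034V replicate 4 had 95.9 CPM of Sevir.8G138300, against 82.5 to 83.5 CPM, and 5.10 CPM of Sevir.3G421500, against 7.79 to 8.15 CPM. The causes were not tested.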

How the results depend on the processing

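The rule gave 75 loci. It gave 149 with an ME034V limit of 1 CPM and 37 with 5 CPM, 55 and 107 with A.10 limits of 0.25 and 1 CPM, and 71 to 76 with any 1 library left out. Leaving out any 1 ME034V library, the members that rose and fell were 14 to 18 and 13 to 18 late against early, 2 to 4 and 0 to 2 from 50% SH to anthesis, 9 to 16 and 8 to 10 from anthesis to 8 DAA, and 0 and 2 to 5 from 8 to 16 DAA. The single fall from 50% SH to anthesis was 0 with DESeq2 size factors, library totals, no filter, 8 libraries of the step, the joint fit or the replicate block. Library totals gave 7 rises from anthesis to 8 DAA, and the stricter filter 18 neighbours higher in ME034V and 9 lower, where fewer loci are tested. Leaving out any 1 of the 32 libraries gave 33 to 37 neighbours higher and 9 to 12 lower.

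The replicate numbers are shared between groups but do not pair the libraries: 24 pairs with the same number had correlations of their deviations from -0.22 to 0.28 (median 0.01, other pairs 0.00), 3 were over 0.1, and 5 of 16 libraries correlated best with their own number. With the replicate block 15 members rose and 17 fell late against early, 13 and 9 from anthesis to 8 DAA, 3 and 0 from 50% SH to anthesis and 0 and 4 from 8 to 16 DAA, and 34 neighbours were higher and 10 lower. For single loci named above, 824 alternative values kept their call, 57 lost it and 3 gained it, and no called value changed sign. The alternative without both libraries that stood apart was chosen after seeing the data. Loci with few counts limit the precision. On simulated counts 68.8%, 63.6% and 66.0% of changes of 1 log2 unit were recovered at the 3 steps, in order. The changed loci were drawn from all tested loci and not at the lower level of the members, so these rates do not give the power for the members.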
